A study of Homo sapiens with 6 samples.

Results

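The regulation of the translation initiation factor eIF2 was examined in U87 cells, an established human glioblastoma line, after exposure to a carborane-bearing amino acid. The gene set was listed by name and held 10 genes of 22411 named genes measured. It comprised the 4 kinases of the eIF2 alpha subunit (EIF2AK1, EIF2AK2, EIF2AK3 and EIF2AK4), the 2 phosphatase regulators PPP1R15A and PPP1R15B, the eIF2 subunit genes EIF2S1 and EIF2S2, and the eIF2B subunit genes EIF2B3 and EIF2B5. Each gene was read from its single transcript cluster, and all 10 were measured. The treated group (Treated_48h) held 3 arrays of cells given the compound at 1 mM for 48 h, and the control group (Control_48h) held 3 arrays of untreated cells, with no vehicle named in the labels. All cells were first grown for 48 h in EMEM with 10% serum and pyruvate. For the controls, no time after this growth is given beyond the group name, so equal culture age is not certain. The carborane, a cage of boron, carbon and hydrogen, is known here only from this description of the compound. The labels do not say whether replicates were separate cultures, and each p-value therefore reflects only how far these samples varied, a variation that may be technical.

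eIF2 carries the initiator methionyl-tRNA to the ribosome as a complex with GTP, and eIF2B is the exchange factor that reloads it with GTP after each round. Under stress, any of the kinases can phosphorylate the alpha subunit, which turns eIF2 into an inhibitor of eIF2B, lowers general translation and favours a few transcripts with upstream open reading frames, such as ATF4. PPP1R15A and PPP1R15B bring protein phosphatase 1 (PP1) to eIF2 and reverse the phosphorylation. In glioblastoma cells, as in others, this integrated stress response is known as a reaction to amino acid shortage and to misfolded proteins in the endoplasmic reticulum. The arrays measured transcripts, and neither phosphorylation nor translation was measured.

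Of the 5 genes that rose, EIF2S2 had no promoter sequence to search. The promoters of 3 of the others are shown because each held a match to a searched regulatory motif. They are RefSeq sequences (GRCh38.p14) read 5′ to 3′ on the gene's strand, in lower case with the match in capitals. The capitals mark a cAMP response element in PPP1R15A, an amino acid response element (the C/EBP-ATF composite site that ATF4 and CHOP bind) in PPP1R15B, and the core of an interferon-stimulated response element in EIF2AK2. The first is chr19:48872171-48872420 on the plus strand, the second chr1:204411818-204412067 on the minus strand and the third chr2:37156978-37157080 on the minus strand.
PPP1R15A: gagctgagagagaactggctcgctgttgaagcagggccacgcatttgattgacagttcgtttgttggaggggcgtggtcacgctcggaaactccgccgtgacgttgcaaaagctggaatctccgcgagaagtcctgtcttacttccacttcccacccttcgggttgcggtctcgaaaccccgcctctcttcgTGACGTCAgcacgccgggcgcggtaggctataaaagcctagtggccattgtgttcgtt
PPP1R15B: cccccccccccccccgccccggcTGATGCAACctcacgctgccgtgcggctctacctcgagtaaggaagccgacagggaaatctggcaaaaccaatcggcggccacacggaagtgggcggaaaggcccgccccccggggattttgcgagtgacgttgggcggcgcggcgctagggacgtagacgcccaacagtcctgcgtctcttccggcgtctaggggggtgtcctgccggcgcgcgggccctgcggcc
EIF2AK2: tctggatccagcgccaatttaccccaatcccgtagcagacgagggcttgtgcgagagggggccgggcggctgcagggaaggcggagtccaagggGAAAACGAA

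Counted from the transcript start, with the base before it as -1, the match began at -58 in PPP1R15A, at -227 in PPP1R15B and at -6 in EIF2AK2. The motifs were searched on both strands of windows of 300 bases around the starts of 8 of the 10 genes, EIF2AK1 and EIF2S2 not being in the sequence table used. The amino acid response motif, written TGATGNAAN, matched 1 of these 8 genes and 3.61% of the 35116 windows of all genes. The interferon motif core, GAAANNGAA, matched 1 of the 8 genes and 8.11% of all windows. The cAMP response element, TGACGTCA, was added after the sequences were seen and matched 1 gene and 1.85% of all windows. That gene, PPP1R15A, held no match to the motifs planned beforehand, the amino acid response motif included. The unfolded protein response element, TGACGTGG, which ATF6 and XBP1 bind, matched 0 of the 8 genes and 0.729% of all windows. The window of EIF2AK3 (chr2:88627415-88627714, minus strand) held 0 matches. It lies inside the RefSeq gene body, which extends to 88628145, so the outer boundary of this gene was not searched. No match overlapped another, and a match is a description of letters, not of binding.

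Both phosphatase regulators and the endoplasmic reticulum stress kinase PERK (EIF2AK3) rose strongly, whereas the amino acid-sensing kinase GCN2 (EIF2AK4) and the phosphorylated subunit itself (EIF2S1) fell. The remaining members moved by less than 0.7 on the log2 scale. All 10 genes passed the test, 5 higher and 5 lower after treatment, against 45.6% of all genes tested (limma, Benjamini-Hochberg adjusted p under 0.05 over all genes). The members were chosen with earlier results of these data known, so this count is no independent evidence. Of all genes, 24.0% were called higher and 21.6% lower. Among genes at or above the median level, where all 10 members lay, 78.5% were called when these were fitted alone. In all 10 members the treated and control arrays did not overlap, which held for 53.5% of all genes. Called changes of 1 or more in log2 units were found in 3 members, EIF2AK3, PPP1R15A and PPP1R15B, against 9.92% of all genes. A stricter test against a minimum log2 change of 0.5 called 5 members, adding EIF2AK4 and EIF2S1 to these 3, against 16.7% of all genes. The shares of 53.5%, 9.92% and 16.7% include the genes below the median level, where no member lay.

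**Figure D1:**
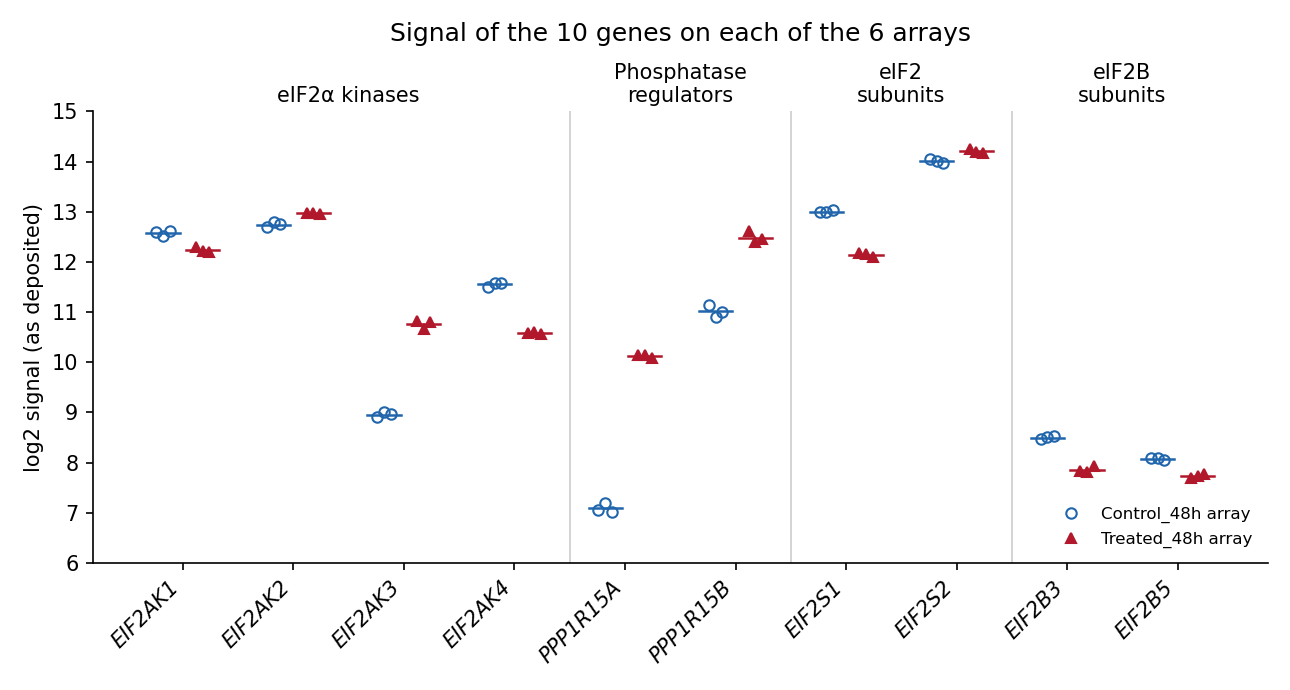
Deposited log2 signal (vertical axis) of each of the 10 genes on the 3 control arrays (open blue circles) and the 3 treated arrays (filled red triangles), with a short line at each group mean. The groups do not overlap for any gene, and the widest gaps are in PPP1R15A, EIF2AK3 and PPP1R15B. Signals of different genes come from different probes and are not comparable in height.

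PPP1R15A, which encodes GADD34, the stress-inducible partner of PP1, had the largest change of the set. Its log2 signal was 7.05, 7.19 and 7.02 in control replicates 1, 2 and 3 and 10.15, 10.14 and 10.09 in treated replicates 1, 2 and 3. The lowest treated array thus lay 2.90 above the highest control array, while arrays of a group differed by at most 0.17. The group means were 7.09 ± 0.09 in controls and 10.13 ± 0.03 in treated cells (SD, n = 3 each), and the gene rose by 3.04 on the log2 scale (95% interval 2.91 to 3.17, adjusted p = 5.6e-08 by limma). By size of change the gene ranked 204 of all 22411 genes. PPP1R15B encodes CReP, the partner of PP1 that is known as constitutive. It was at 11.14, 10.91 and 11.01 in controls and at 12.61, 12.39 and 12.45 in treated arrays, with no overlap and a wider spread within each group than in PPP1R15A. It rose by 1.46 on the log2 scale (95% interval 1.27 to 1.66, adjusted p = 6.21e-06 by limma).

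The change of PPP1R15A exceeded that of PPP1R15B by 1.58 on the log2 scale (SE 0.13), computed from the difference between both genes on each array. The 3 control and 3 treated differences did not overlap, and the two-sided exact permutation p was 0.1, the smallest that 3 arrays against 3 allow. The same smallest p was found in each of the 5 pairs of members compared in this way. It remained 0.1 after adjustment over the 5. In EIF2AK3 with EIF2AK4, EIF2AK1 with EIF2AK2 and EIF2S2 with EIF2S1, the groups had already separated in opposite directions. Their differences could not overlap, so this p was fixed beforehand and adds nothing. The pairs were matched by role and chosen after the values were seen. Differences in probe response between genes can affect such comparisons.

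The PP1 catalytic subunits, which act with these regulators, moved by less and in both directions. PPP1CA fell by 0.49 and PPP1CC fell by 0.87 on the log2 scale, and PPP1CB rose by 0.35 (adjusted p = 8.94e-05, 5.73e-06 and 4.25e-04 by limma).

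The kinases diverged, with PERK higher, GCN2 lower and the other pair changed by little. EIF2AK3 encodes PERK, the kinase in the endoplasmic reticulum membrane that responds to misfolded proteins. It was at 8.91, 9.00 and 8.96 in controls and at 10.82, 10.66 and 10.81 in treated arrays, and the groups were separated by 1.66. The group means were 8.96 ± 0.05 in controls and 10.76 ± 0.09 in treated cells (SD, n = 3 each), and the gene rose by 1.81 (95% interval 1.67 to 1.94, adjusted p = 5.06e-07 by limma). EIF2AK4 encodes GCN2, the kinase activated by uncharged tRNAs when amino acids run short. Its control arrays read 11.50, 11.58 and 11.58 and its treated arrays 10.58, 10.61 and 10.56, every treated value being lower. It fell by 0.97 on the log2 scale (95% interval for the change -1.07 to -0.87, adjusted p = 2.22e-06 by limma). The changes of EIF2AK3 and EIF2AK4 differed by 2.78 on the log2 scale (SE 0.07).

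EIF2AK1 encodes HRI, the kinase that responds to lack of heme and to mitochondrial stress. It was at 12.60, 12.51 and 12.61 in controls and at 12.29, 12.22 and 12.19 in treated arrays, and fell by 0.34 (95% interval for the change -0.46 to -0.22, adjusted p = 9.63e-04 by limma). EIF2AK2 encodes PKR, the kinase that binds double-stranded RNA and is induced by interferon. It was at 12.69, 12.79 and 12.75 in controls and at 12.98, 12.97 and 12.95 in treated arrays, and rose by 0.22 (95% interval 0.12 to 0.33, adjusted p = 0.00419 by limma). The gap between the groups was 0.22 for EIF2AK1 and 0.16 for EIF2AK2, against a range of at most 0.10 within a group. The change of EIF2AK1 lay 0.56 below that of EIF2AK2 (SE 0.06). In the RefSeq gene table, the gene bodies of EIF2AK1, EIF2AK2 and EIF2S1 overlap those of other protein-coding genes, and EIF2AK3 overlaps an antisense RNA gene. EIF2AK4 and EIF2B3 overlap pseudogenes. Of the overlapping protein-coding genes, ANKRD61 (in EIF2AK1) had a log2 change of 0.40 and GPHN (in EIF2S1) one of -0.15 (adjusted p = 0.0271 and 0.0166 by limma). The others were not measured. The probe positions were not used here, so shared signal in these members was not tested.

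Genes that act on the kinases were examined as a list of 11, of which 10 were measured, and of these 4 rose, 4 fell and 2 missed the threshold. Among all genes 45.6% were called, and among those at or above the median level, fitted alone, 78.5%. The median log2 change of the list was 0.03, against 0.01 for all genes. ADAR, the RNA-editing enzyme that limits PKR activation, rose by 1.25. The chaperone gene HSPA5 (BiP), which holds PERK inactive, rose by 1.13, and DNAJC3, which encodes the kinase inhibitor P58IPK, rose by 1.05. TARBP2, an RNA-binding inhibitor of PKR, fell by 0.58 (adjusted p = 1.24e-06, 1.29e-05, 1.11e-05 and 2.46e-05 by limma, in this order). TARBP2 was near the median signal of all genes, 6.12, in both groups, so its size is uncertain. Of the regulators of HRI, OMA1 had a log2 change of -0.50 and DELE1 one of -0.07, and of those of GCN2, GCN1 had -0.22 and IMPACT 0.25. DELE1 was not called (adjusted p = 0.333 by limma), and these 4 genes are named after their values were seen.

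The subunits of eIF2 did not move together. EIF2S1 encodes the alpha subunit, the target of all the kinases. It was at 12.99, 12.99 and 13.03 in controls and at 12.18, 12.15 and 12.09 in treated arrays, so that every treated array was lower by at least 0.81. It fell by 0.86 on the log2 scale (95% interval for the change -0.96 to -0.76, adjusted p = 3.69e-06 by limma). EIF2S2 encodes the beta subunit. It was at 14.05, 14.02 and 13.98 in controls and at 14.25, 14.19 and 14.16 in treated arrays, with a gap of 0.11 between groups. It rose by 0.18 (95% interval 0.08 to 0.29, adjusted p = 0.0124 by limma), the smallest change of the set, and this call was lost when all rows of the table were tested (adjusted p = 0.0585) and when quantile normalization was repeated (adjusted p = 0.0692). EIF2S3, the gene of the gamma subunit and not a member of the set, rose by 0.23 (adjusted p = 0.00391 by limma). The change of EIF2S2 exceeded that of EIF2S1 by 1.05 (SE 0.03).

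EIF2S2 and EIF2S3 have near-identical copies in the genome, and their probes may share signal. The pseudogene EIF2S2P3 read 8.03 to 8.18 in controls and 8.07 to 8.35 in treated arrays and was not called (log2 change 0.14, adjusted p = 0.244 by limma). The copy EIF2S3B was not called either (log2 change 0.15, adjusted p = 0.392 by limma). Its means were 5.31 in controls and 5.46 in treated arrays, below the median gene, so a missing call says little about shared signal.

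The eIF2B complex was lower in 4 of its 5 subunit genes. EIF2B3 and EIF2B5 encode the gamma and epsilon subunits, which form the catalytic part of the exchange factor. EIF2B3 was at 8.46, 8.51 and 8.52 in controls and at 7.83, 7.82 and 7.93 in treated arrays. It fell by 0.64 on the log2 scale (95% interval for the change -0.75 to -0.52, adjusted p = 2.78e-05 by limma). EIF2B5, which encodes the subunit that carries the exchange activity, was at 8.09, 8.09 and 8.05 in controls and at 7.69, 7.74 and 7.77 in treated arrays. It fell by 0.34 (95% interval for the change -0.44 to -0.24, adjusted p = 3.73e-04 by limma). In both genes all treated arrays lay below all control arrays. The fall of EIF2B3 was larger by 0.29 (SE 0.04). Of the regulatory subunits, EIF2B1 (alpha) fell by 0.48 and EIF2B2 (beta) fell by 0.40, whereas EIF2B4 (delta) rose by 0.26 (adjusted p = 1.94e-04, 2.24e-04 and 8.52e-04 by limma). Over the 8 genes of eIF2 and eIF2B, 3 rose and 5 fell, with a median log2 change of -0.37. Of all genes at or above the median level, 78.5% were called when fitted alone.

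**Figure D2:**
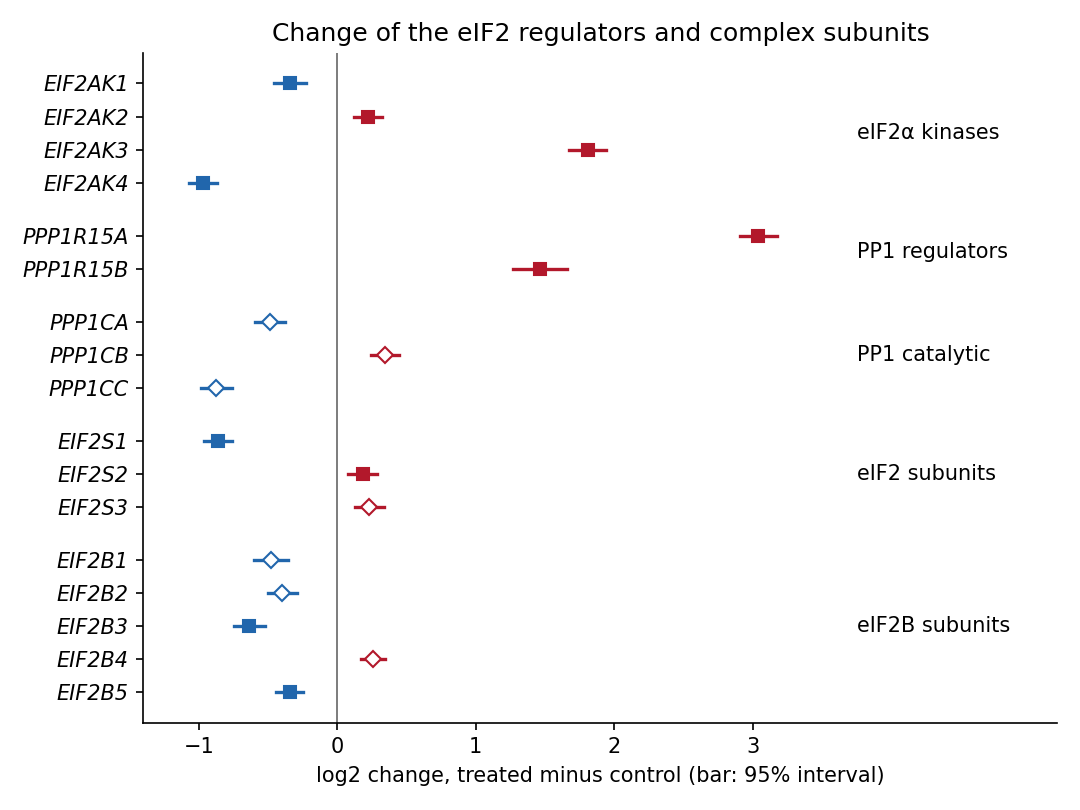
Log2 change, treated minus control, of the 10 genes (filled squares) and of the other subunits of PP1, eIF2 and eIF2B (open diamonds), with 95% intervals from limma as bars, red for higher and blue for lower. PPP1R15A at 3.04, EIF2AK3 at 1.81 and PPP1R15B at 1.46 stand to the right, and EIF2AK4 at -0.97 is the lowest.

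Partners of eIF2 in initiation also changed both ways, with 4 higher and 5 lower of 9 and a median log2 change of -0.31. As background for this and the eIF3 and eIF4 lists, 45.6% of all genes were called. Among genes at or above the median level, fitted alone, the share was 78.5%. EIF5, the gene of the GTPase-activating protein of eIF2, rose by 0.94. EIF2D and EIF2A, which encode factors that can deliver initiator tRNA without eIF2, rose by 1.07 and 0.64, whereas DENR, which works with MCTS1 in reinitiation and tRNA release, fell by 1.09 (adjusted p = 7.27e-06, 1.19e-06, 7.48e-06 and 2.48e-06 by limma). Other initiation factors served as comparison. Of 11 measured eIF3 subunit genes, 5 rose, 3 fell and 3 missed the threshold, and the log2 changes ran from -0.45 to 0.40 around a median of 0.11. EIF3F, EIF3L and EIF3M rose by 0.40, 0.36 and 0.32, and EIF3B fell by 0.45. Of 8 measured eIF4 factor genes, 2 rose, 5 fell and 1 missed the threshold, around a median of -0.33. EIF4G1, the scaffold of the cap-binding complex, fell by 1.03, the cap-binding protein gene EIF4E fell by 0.70, EIF4E2 fell by 0.46 and EIF4H fell by 0.44.

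Listed transcripts known to be translated preferentially when eIF2 is phosphorylated rose in 3 of 5 measured genes, 0 fell and 2 were not called. The list left out all members of the set, PPP1R15A and PPP1R15B included. Of all genes, 24.0% were called higher. Among genes at or above the median level, fitted alone, 78.5% were called in either direction. DDIT3, the gene of CHOP, rose by 3.40, ATF4 by 1.29 and IBTK by 1.17 on the log2 scale (adjusted p = 8.38e-07, 8.87e-06 and 2.6e-06 by limma). EPRS1 and SLC35A4 had log2 changes of 0.15 and 0.10 (adjusted p = 0.131 and 0.223 by limma) and are named after their values were seen, as is VLDLR below. Genes that ATF4 activates rose in 11 of 12, with a median log2 change of 2.06, including ATF3 at 3.22, TRIB3 at 2.53, CEBPG at 1.48 and the tRNA exporter gene XPOT at 1.38. VLDLR was not called (log2 change 0.26, adjusted p = 0.0765 by limma). This list was known from earlier results of these data to rise and is no independent evidence of direction. The other lists were also chosen with earlier results known.

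**Figure D3:**
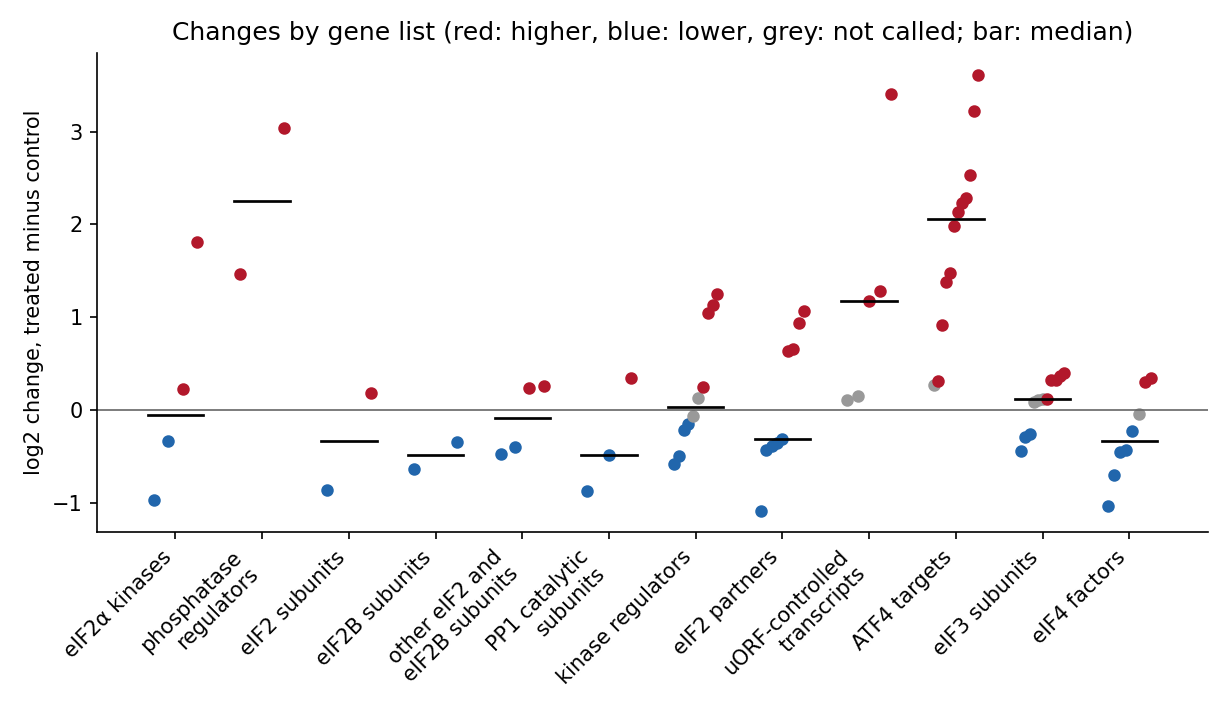
Log2 change, treated minus control, of each measured gene by list, red for called higher, blue for called lower and grey for not called, with a bar at the list median. The ATF4 targets (median 2.06) and the phosphatase regulators lie above 0, whereas the kinases, the eIF2 partners and the eIF3 and eIF4 factors spread to both sides.

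Control replicate 3 lay close to the other controls in the 10 genes and below them in most ATF4 targets and in the measured uORF-controlled transcripts. For the set, the value of control replicate 3 minus the mean of control replicates 1 and 2 ranged from -0.10 to 0.06, with a median of 0.01, and control replicate 3 was the lowest control in 3 of 10 genes, against 7547 of all 22411 genes. For the 12 ATF4 targets the median was -0.33 and the lowest value -1.25, and control replicate 3 was lowest in 10 of 12. For the 5 uORF-controlled transcripts the median was -0.21 and the lowest value -0.33, in DDIT3, and control replicate 3 was lowest in 5 of 5. In SESN2, ASNS and CHAC1, chosen here after their values were seen, the value was -1.09, -1.25 and -1.05. PPP1R15A, itself a target of ATF4 and CHOP, had a value of -0.10. Without control replicate 3, its log2 change was 3.01, and all 10 members were called in the same directions. No test of the difference between these lists was made.

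**Figure D4:**
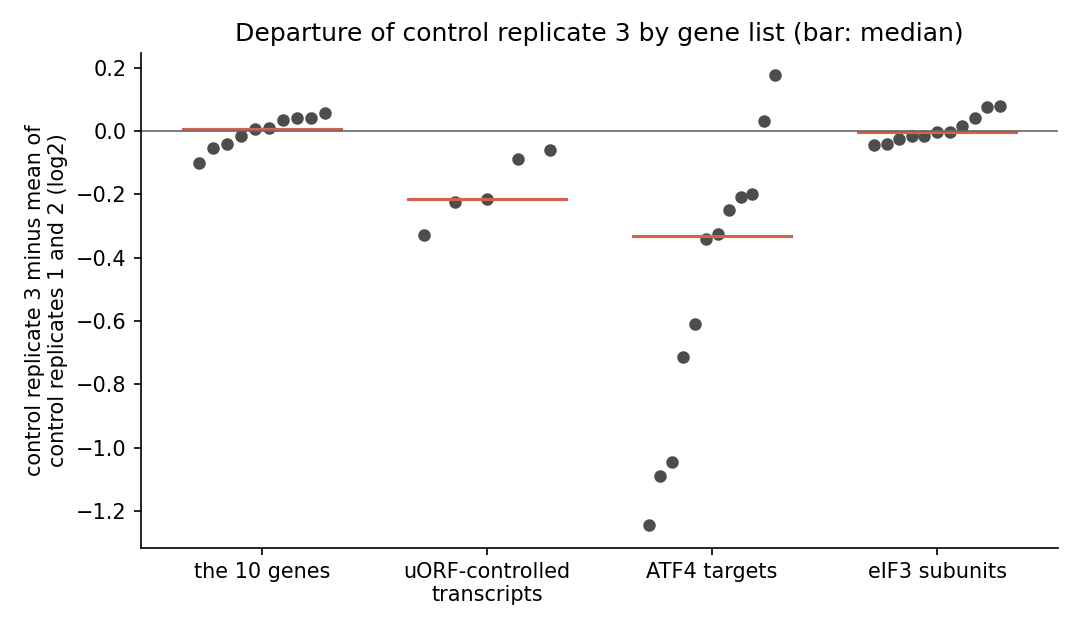
Log2 signal of control replicate 3 minus the mean of control replicates 1 and 2 (vertical axis), 1 point per gene, for the 10 genes, the uORF-controlled transcripts (those with upstream open reading frames), the ATF4 targets and the eIF3 subunits, with a bar at each median. The 10 genes lie within -0.10 to 0.06, and the ATF4 targets reach down to -1.25.

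Of 9779 other protein-coding genes above the median level, those whose profile over the 6 arrays lay nearest to PPP1R15A were CREBRF, which encodes a regulator of the unfolded protein response factor CREB3, RNF19B, a ubiquitin ligase gene, and the cytokine gene IL1B. Their root mean square differences from PPP1R15A, after each gene was centred on its mean, were 0.03, 0.05 and 0.05 on the log2 scale. The log2 change was 3.08 in CREBRF, 2.97 in RNF19B and 3.01 in IL1B. The measure reflects the size of the shift between both groups above all else.

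Signals of all named genes correlated at 0.998 within a group and at 0.959 to 0.963 between groups (Pearson, across genes, which are not independent replicates). All 5 measured markers of U87 and mesenchymal glioma cells lay above the median gene, and all 5 were called. Of all genes at or above the median level, 78.5% were called when fitted alone. CHI3L1 fell by 2.86, VIM fell by 0.70 and S100A6 fell by 0.48, whereas CD44 rose by 0.44 and ANXA1 rose by 0.35. The log2 of their summed signal was 17.41 to 17.46 in controls and 17.20 to 17.26 in treated arrays. Of 5 astrocyte markers 4 lay at or below it, GFAP included. All 3 measured oligodendrocyte-lineage, all 4 endothelial and all 3 epithelial markers, and the immune genes PTPRC, CD3E and AIF1, also lay at or below it. The oligodendrocyte-lineage sum was 6.51 to 6.55 in controls and 6.67 to 6.78 in treated arrays, with OLIG2 called higher at 0.37. The endothelial sum was 6.95 to 6.97 in controls and 6.81 to 6.90 in treated arrays, with CLDN5 called lower at -0.20. The epithelial sum was 6.67 to 6.73 in controls and 6.59 to 6.66 in treated arrays, with EPCAM called lower at -0.20. CD68, a lysosomal protein gene listed with the immune markers, was high in both groups (log2 change 0.02, not called). Of 3 measured neuron markers 1 lay above the median gene, and the log2 of their summed signal was 9.81 to 9.91 in controls and 7.66 to 7.82 in treated arrays, with SNAP25 lower by a log2 change of -2.51. The astrocyte sum was 8.47 to 8.61 in controls and 7.91 to 7.98 in treated arrays, with SLC1A3 at -0.97. Their part in the results was not tested. Of the reference genes, ACTB fell by 1.46, GAPDH fell by 0.51 and TBP rose by 0.34, so no member was scaled to them. In bulk RNA normalized between arrays, fewer cells of a type, less of a transcript per cell and a change of total RNA cannot be told apart.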

How the data were processed

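Affymetrix whole-transcript arrays were hybridised with total RNA of 6 U87 samples. The authors deposited log2 signals, 1 per transcript cluster. The submitters' processing notes name RMA and Transcriptome Analysis Console 4.0.1.36. The table has 67528 rows, array medians of 5.18 to 5.24 and values up to 19.46, above the 16 that a 16-bit reading can reach, so the scale of the log2 changes is uncertain and no linear folds are given. The genome build and detection p-values are not given in the sources used here.

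Names came from the platform annotation, updated to the symbols of the RefSeq table (GRCh38.p14). The 23781 rows with 1 symbol were reduced to the highest-mean row per gene, and 1543 rows with several symbols were left out. The groups were tested in R 4.3.3 with limma 3.58.1 (a linear fit with eBayes moderation, 4 residual degrees of freedom, no filter on level), with Benjamini-Hochberg adjustment over 22411 genes and a threshold of 0.05. The fit was tested on simulated data. The members and lists were chosen with earlier results of these data known. Named genes were all members, all genes of lists with up to 4 measured genes, up to 4 called genes with the smallest adjusted p of longer lists, the 3 nearest profiles, and ACTB, GAPDH and TBP. Outside this rule stand cell type markers, near-identical copies, genes that overlap a member and the genes said in the text to be named after their values were seen. The number of arrays limits the precision. Promoter windows came from RefSeq (GRCh38.p14); protein sequences were not used here. Alternatives were leaving out each array, a replicate block, removing dim genes (those whose mean lay under the median), testing all rows, averaging rows, centring, array weights, repeated quantile normalization, a robust eBayes with a trend, a scale compressed to 16, a minimum log2 change of 0.5 (limma's treat) and protein-coding genes alone. Figures were drawn with matplotlib 3.10.9.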

Additional observations from a re-analysis of the deposited data

How the results depend on the processing

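Of 170 values (10 genes under 17 alternatives), 163 kept their direction and side of the threshold, 7 lost the call and 0 reversed. A direction could change only when an array was left out, arrays were weighted or centred, or quantile normalization was repeated. Under the other alternatives each member's log2 change was unchanged or multiplied by a constant, so its direction was fixed. The calls lost were those of EIF2S2 with all rows tested and with repeated quantile normalization, and, under a minimum log2 change of 0.5, those of EIF2AK1, EIF2AK2, EIF2S2, EIF2B3 (adjusted p = 0.0702) and EIF2B5. That alternative called 5 members, 3 higher and 2 lower, 3742 genes in all and 23 of the 62 other genes of the pathway lists, fewer because it asks for a larger change. Leaving out each array gave 9298 to 9725 called genes, 10 members each time with 5 higher and 5 lower, and 50 to 53 genes of the lists. Multiplying all values by a constant (0.822), so that the highest is 16, turned the log2 change of PPP1R15A from 3.04 into 2.50. Such a factor cannot change a call, and an uneven stretching of the scale was not tested. Replicate numbers are shared by the groups, but same-numbered arrays correlated at -0.08, 0.04 and -0.05 in their deviations from the group means, so the numbers are not taken as pairs. With the replicate block, 9577 genes and all 10 members were called. Repeated quantile normalization lowered the log2 change of all 10 members, that of EIF2AK2 from 0.22 to 0.16 and that of EIF2S2 from 0.18 to 0.13. The deposited arrays were thus not at an identical distribution, which matters most for these small rises. Without detection values, signals near background are uncertain in size.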
